A study of Mus musculus with 2 samples.

Results

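Cluster 2 of the H3K36M section is a group of spots on a tongue section that the authors' graph-based clustering had separated from 3 other groups of spots. It was taken as deposited, as the column of cluster 2 averages, and described over all 298 genes listed for that section, of 879 genes listed in either section. It held 306551 unique molecular identifiers (UMIs, each standing for 1 captured transcript), or 53.7% of those of its section. It is 1 of 7 clusters in the series, 4 on the H3K36M section and 3 on the WT section. How many spots each cluster held is not known here.

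The H3K36M section came from a mouse of genotype Krt14-Cre(+); LSL-H3K36M, and the WT section from a mouse of genotype Krt14-Cre(-); LSL-H3K36M. Both mice carried the transgene, which stays silent until Cre removes a stop cassette, and both had received 4NQO, a carcinogen that causes lesions of the oral lining. Cre under the Krt14 promoter acts in basal cells of stratified epithelia and in their progeny, so muscle, vessels and immune cells of the same tongue are not its target. H3K36M is a histone H3 with methionine in place of lysine 36, which inhibits the enzymes that methylate that lysine. There was 1 section per genotype, the ages of the mice were not given, and no test between genotypes was possible.

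Frozen tissue was laid on an array of barcoded spots, and a spot can hold several cells of different types. A rate here is the number of UMIs of a gene per 10000 UMIs of its cluster. Values in parentheses are 95% exact intervals that cover counting error only. Ratios compare rates, and every gene had served to draw the clusters, so a cluster against the rest is a description and not a test. Fewer cells of a type and less RNA per cell cannot be told apart in such data. The H3K36M section was shallow, with a median of 763.5 UMIs per spot under tissue in the deposited metrics, against 4899 UMIs in the WT section.

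S100a8 and S100a9 are small calcium-binding proteins that pair to form calprotectin, an alarmin released by neutrophils and by stressed or wounded squamous epithelium, where it sequesters zinc and manganese and signals inflammation. The mitochondrial genome encodes core subunits of the respiratory chain, and its transcripts are abundant in cells with high oxidative demand, such as muscle. The surface of the tongue is a stratified epithelium in which basal cells with Krt5 and Krt14 give rise to layers with Krt4 and Krt13 and to filiform papillae with harder keratins.

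S100a8 and S100a9 lie on chromosome 3 in opposite orientation, S100a8 from 90668978 to 90670035 on the plus strand and S100a9 from 90692632 to 90695721 on the minus strand (GENCODE, GRCm38). The sequences around the RefSeq starts of these 2 genes are shown because they had the highest ratios of cluster 2 to the other clusters. Each runs 5′ to 3′ from 120 bases before the RefSeq start to 30 bases after it (GRCm38.p6), at chr3:90668951-90669100 on the plus strand for S100a8 and chr3:90695692-90695841 on the minus strand for S100a9. Capitals mark matches to 3 motifs searched on both strands, the TATA box TATAAA, the AP-1 motif TGANTCA and the C/EBP motif TTNNGNAA.
S100a8: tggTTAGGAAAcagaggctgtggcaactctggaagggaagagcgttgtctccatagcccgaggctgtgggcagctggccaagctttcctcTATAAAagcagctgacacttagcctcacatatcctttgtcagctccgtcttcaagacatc
S100a9: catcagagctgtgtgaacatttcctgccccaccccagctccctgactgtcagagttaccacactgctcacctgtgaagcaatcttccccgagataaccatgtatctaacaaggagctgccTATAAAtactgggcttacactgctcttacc
Both windows held TATAAA, which 7.16% of all 32851 RefSeq windows of the same length hold. It began at position -30 for S100a8 and at position 1 for S100a9, counted from the RefSeq start. The RefSeq start of S100a8, 90669071, lies 93 bases downstream of the GENCODE start given above, so its TATAAA is inside the GENCODE gene, while the starts of S100a9 coincide. TTNNGNAA matched in the S100a8 window only, at position -117, and 21.4% of all windows hold it. TGANTCA matched in neither window, and 4.16% of all windows hold it. None of these matches overlapped another. A match is a run of letters and not a shown binding site.

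The 5 genes given as markers of cluster 2 (S100a8, S100a9, mt-Co1, Gstm1 and Mt3) had been chosen with these averages known, so their rates describe the region and are no check of it. S100a8 stood at 26.5 UMIs per 10000 (24.7 to 28.4) in cluster 2, against 3.47 in cluster 1, 1.44 in cluster 3 and 5.09 in cluster 4. S100a9 stood at 17.1 (15.7 to 18.7), against 1.74, 0.619 and 3.02 in clusters 1, 3 and 4. The interval of cluster 2 lay above those of all 3 other clusters for both genes.

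The S100a8 rate was 11.5 times (8.85 to 15.2) that of the other clusters pooled, and the S100a9 rate 14.6 times (10.2 to 21.7). Cluster 2 held 93.0% of the section's S100a8 UMIs and 94.4% of its S100a9 UMIs. The ratio was widest against cluster 3, at 18.4 for S100a8 and 27.7 for S100a9, and smallest against cluster 4, at 5.21 and 5.68. The subunits kept a similar balance, with 1.55 S100a8 UMIs per S100a9 UMI (1.39 to 1.73) in cluster 2. Cluster 3 had 2.33 (1.15 to 5.04), and cluster 4 had 1.69 (0.877 to 3.35).

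The alarmin rates of cluster 2 were high within its own section but not beside the WT section. On the WT section S100a8 stood at 202, 154 and 99.4 UMIs per 10000 in clusters 1 to 3, and S100a9 at 116, 84.4 and 67.5. The cluster 2 rates of the H3K36M section were below all 3 WT clusters for both genes. The tables of the sections were scaled separately, with 1 section each, so these values are set side by side without a test. Rates of the H3K36M section also rest on its recovered UMI totals, whose implied median of 1380.5 UMIs per clustered spot differs from the deposited 763.5 per spot under tissue. With totals doubled, the next size that keeps them whole, S100a8 and S100a9 would stand at 13.3 and 8.56, still below all 3 WT clusters.

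Other members of the S100 family did not share this pattern. Of the 11 S100 genes in the list, 7 were listed and 2 of them, S100a8 and S100a9, were at least 2-fold higher in cluster 2 than in the other clusters pooled. Over all 298 listed genes, 8.39% (25 genes) were at least 2-fold higher and 17.8% (53 genes) at least 2-fold lower, with a median ratio of 1.07. S100a6, which is abundant in stromal and epithelial cells, stood at 11.03 UMIs per 10000 in cluster 2 and 52.6 in cluster 4. S100a14, an epithelial member, had a ratio of 0.609 (0.519 to 0.714) to the other clusters pooled. The list of neutrophil genes had 2 of 18 members listed, and these were S100a8 and S100a9 themselves. The other 16, among them Ngp, Camp, Retnlg, Elane and Csf3r, were not listed, so that none reached an average of 1, or 7.24 UMIs per 10000, in any cluster if the table holds every gene above that limit. Ltf, which neutrophils also make, was counted in the salivary gland list and not in this one. It stood at 1.08 UMIs per 10000 in cluster 2, against 8.10, 0.516 and 39.8 in clusters 1, 3 and 4. Any part of neutrophils in the alarmin values was not tested.

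**Figure D1:**
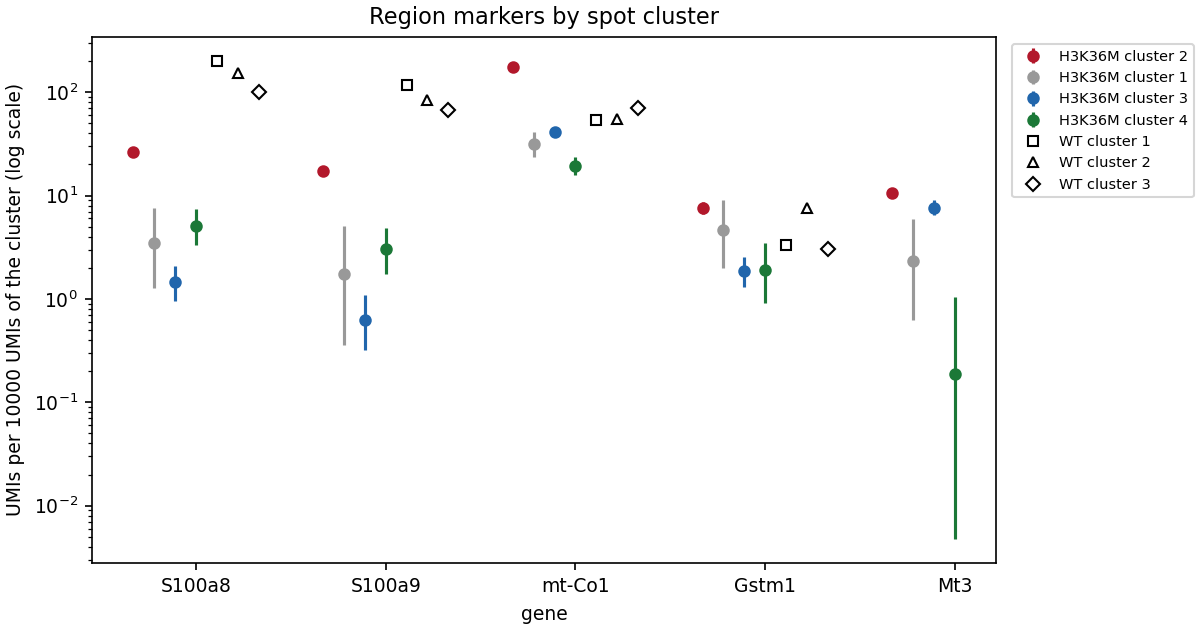
Rate of the 5 region markers in UMIs per 10000 UMIs of the cluster (log scale), for H3K36M clusters 2, 1, 3 and 4 (filled, with 95% exact Poisson intervals) and WT clusters 1 to 3 (open, without intervals; Mt3 was not in the WT table). Cluster 2 of H3K36M was the highest of its section for each gene, as their choice as markers implies, while S100a8 and S100a9 stood lower there than in every WT cluster.

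By abundance, cluster 2 was a keratin-rich region with a large mitochondrial share. Its 15 most abundant genes held 14.7% of its UMIs, and 5 of them were keratins and 5 mitochondrially encoded. Krt13, the main keratin of the layers above the basal cells, led with 297 UMIs per 10000 (291 to 303), against 143, 406 and 73.2 in clusters 1, 3 and 4. It was followed by mt-Co1 at 176, Krt4, the partner of Krt13, at 133, and mt-Co3 at 119. Fabp5, a fatty acid-binding protein of keratinocytes, stood at 105 UMIs per 10000 in cluster 2 and at 35.3, 77.5 and 22.4 in clusters 1, 3 and 4.

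Krt14, whose promoter drives Cre in this model, stood at 44.8 UMIs per 10000 in cluster 2, close to the 42.8 and 46.4 of clusters 1 and 3 and below the 108 of cluster 4. Among the remaining abundant genes, Mt4, a metallothionein of stratified epithelium, stood at 81.6 and the elongation factor gene Eef1a1 at 64.2. Krt6a and Krt6b, keratins of wounded and of tongue epithelium, stood at 85.5 and 45.2, Krtdap, a secreted protein of differentiating keratinocytes, at 51.4, and the ribosomal stalk gene Rplp1 at 44.3.

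**Figure D2:**
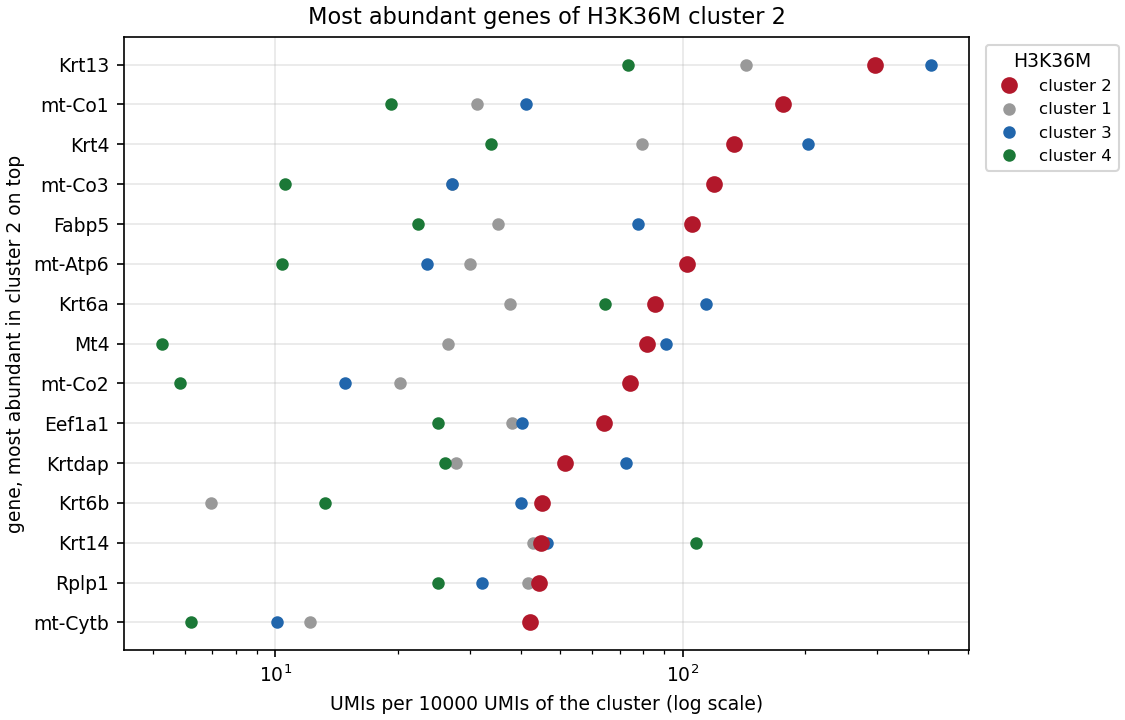
Rate in UMIs per 10000 UMIs of the cluster (log scale) of the 15 most abundant genes of H3K36M cluster 2, in clusters 2, 1, 3 and 4 of the same section. The mitochondrially encoded genes are higher in cluster 2 than in every other cluster, whereas Krt13 and Krt4 are highest in cluster 3.

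All 9 listed mitochondrially encoded genes were at least 2-fold higher in cluster 2 than in each other cluster. Over all listed genes, 21.5% were at least 2-fold higher than in cluster 1, 10.7% than in cluster 3 and 30.5% than in cluster 4. Together they took 6.09% of UMIs (6.004 to 6.179) in cluster 2, against 1.54%, 1.38% and 0.609% in clusters 1, 3 and 4. The summed rate was 4.92 times (4.74 to 5.11) that of the other clusters pooled. Of the list of 15, 9 were listed, and they were 9 of the 25 genes past 2-fold in this comparison.

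Against the other clusters pooled, the size of the difference was similar across the respiratory complexes. Among the catalytic subunits of complex IV, mt-Co1 (mitochondrial genome, 5328 to 6872, plus strand, GRCm38) stood at 176 UMIs per 10000 in cluster 2, against 31.2, 41.2 and 19.2 in clusters 1, 3 and 4. mt-Co2 stood at 74.2, against 20.2, 14.9 and 5.84, and mt-Co3 at 119, against 27.2, 27.1 and 10.6. Their ratios to the other clusters pooled were 4.88 for mt-Co1, 5.54 for mt-Co2 and 5.02 for mt-Co3.

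mt-Atp6, a subunit of the ATP synthase, had a ratio of 4.795, and mt-Cytb, the core of complex III, a ratio of 4.45 to the other clusters pooled. The complex I subunits ranged from 4.43 for mt-Nd1 to 5.42 for mt-Nd2, with mt-Nd4 at 4.79 and mt-Nd3 at 5.07. The 9 ratios therefore spanned 4.43 to 5.54, and their intervals overlapped. mt-Co1 made up 29.0% of these mitochondrial UMIs in cluster 2, 29.8% in cluster 3 and 31.6% in cluster 4, but 20.2% in cluster 1. The share of mt-Nd1 was 5.37%, 5.85% and 4.33% in clusters 2, 3 and 4, but 8.99% in cluster 1. Ratios to cluster 1, which held 267 such UMIs, therefore differed more between genes.

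Against single clusters the median ratio of the 9 genes was 3.46 for cluster 1, 4.35 for cluster 3 and 10.97 for cluster 4. On the WT section the same 9 genes took 2.03%, 1.93% and 3.19% of UMIs in clusters 1 to 3. With the recovered totals, the H3K36M cluster 2 rate was above all 3 WT clusters for each of the 9, for example mt-Co1 at 176 against 53.8, 55.5 and 70.1 UMIs per 10000. With H3K36M totals doubled this held for 2 of the 9, mt-Co2 would stand at 37.1 against 25.4, 20.5 and 42.3, and the share of the 9 genes would be 3.05%, below the 3.19% of WT cluster 3. The order of the sections for mitochondrial transcripts therefore depends on the totals.

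**Figure D3:**
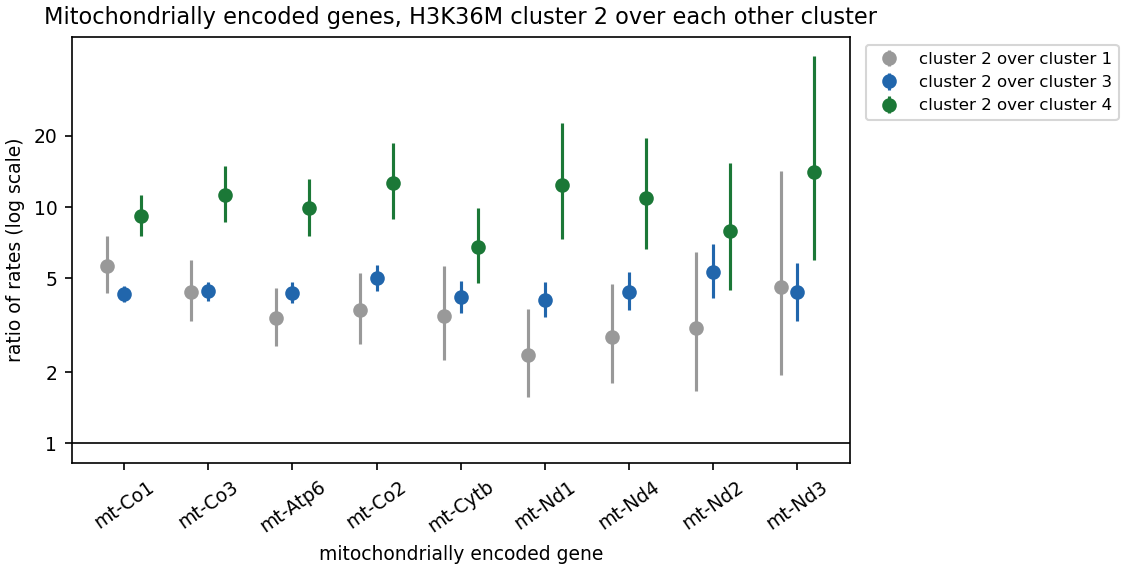
Ratio of the rate in H3K36M cluster 2 to that in clusters 1, 3 and 4 (log scale) for the 9 mitochondrially encoded genes, ordered by their rate in cluster 2, with 95% exact conditional intervals. All points lie above 2, and the highest ratio of each gene is the one to cluster 4.

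Nuclear genes of the respiratory chain did not reach 2-fold against the other clusters pooled. Of the 65 in the list, 11 were listed, 4 were highest in cluster 2 and 0 were at least 2-fold higher or lower there. Over all listed genes, 8.39% were at least 2-fold higher and 17.8% at least 2-fold lower. The median ratio of the 11 was 1.41. The complex IV subunit genes Cox7c and Cox6c had the highest ratios, 1.82 each, at 7.80 and 10.5 UMIs per 10000 in cluster 2. Both were listed through cluster 2 alone, which fixed that they were highest there. Atp5b, the catalytic subunit of the ATP synthase, stood at 14.2 in cluster 2 and 9.57 in the other clusters pooled, a ratio of 1.48 (1.26 to 1.73). The ADP/ATP carrier gene Slc25a5 had a ratio of 1.496. Summed, the 11 genes took 0.848% of UMIs in cluster 2, against 0.902%, 0.596% and 0.654% in clusters 1, 3 and 4. The nuclear share of cluster 1 was near that of cluster 2, while its mitochondrial share was near that of cluster 3.

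Muscle transcripts were present in cluster 2. Of the 29 genes in the skeletal muscle list, 10 were listed, 4 were at least 2-fold higher and 0 at least 2-fold lower. Over all listed genes these shares were 8.39% and 17.8%. The median ratio of the 10 genes was 1.62. Acta1, the actin of skeletal muscle, stood at 12.98 UMIs per 10000 in cluster 2, against 8.68, 4.38 and 5.28 in clusters 1, 3 and 4. Myh4, a fast myosin heavy chain, stood at 11.2, against 20.2, 3.66 and 3.58.

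Tnnc2, the fast troponin C, had a ratio of 2.31 to the other clusters pooled, and Ckm, the muscle creatine kinase, one of 2.05. In cluster 2 they stood at 7.503 and 10.9 UMIs per 10000, below the 14.5 and 15.04 of cluster 1. The 10 muscle genes together took 0.833% of UMIs in cluster 2 (0.801 to 0.866), 1.54% in cluster 1, 0.366% in cluster 3 and 0.453% in cluster 4. Cluster 1 thus had 1.54% of UMIs from muscle genes and 1.54% from mitochondrially encoded genes, whereas cluster 2 had 0.833% and 6.09%. The part of muscle tissue under these spots in the mitochondrial values was not tested.

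Of 75 ribosomal protein genes, all listed, 5 were at least 2-fold higher in cluster 2 and 0 lower, near the 8.39% of all listed genes past 2-fold. Their median ratio was 1.41, against 1.07 for all listed genes, 74 had a ratio above 1 and 65 were highest in cluster 2 of the 4 clusters. Together they took 15.7% of UMIs in cluster 2, against 10.9%, 11.2% and 9.55% in clusters 1, 3 and 4. The 5 were Rpl39 at 2.71, Rps29 at 2.65, Rps27 at 2.08, Rpl41 at 2.06 and Rps28 at 2.05, all with coding sequences in the shortest of 3 equal length classes. With mitochondrial UMIs left out of the totals 8 passed, the added ones being Rps21 (249 bases), Rps23 (429 bases) and Rps13 (453 bases), of which the last 2 lie in the middle class. Rpl39 stood at 30.3 UMIs per 10000 in cluster 2, against 8.68, 12.5 and 7.16 in clusters 1, 3 and 4.

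The ratio of ribosomal protein genes followed the length of their coding sequence. In the 25 genes with the shortest coding sequences (138 to 405 bases, the longest in GENCODE for each gene) the median ratio was 1.68, in the middle 25 it was 1.39, and in the 25 longest (582 to 1257 bases) it was 1.34. Across the 75 genes, which share their libraries and are not independent, the Spearman correlation of length and ratio was -0.60 and the Pearson correlation on log2 scales -0.67. It was -0.51, -0.57 and -0.48 (Spearman) against clusters 1, 3 and 4 singly. With transcript length in place of coding length, the Spearman correlation was -0.46. On the WT section, the ratio of cluster 2 to the other WT clusters had a Spearman correlation of 0.01 with coding length over the same 75 genes. The relation was looked for after the 5 genes had been seen. Among the 209 other nuclear genes with a coding sequence, the Spearman correlation was -0.14.

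**Figure D4:**
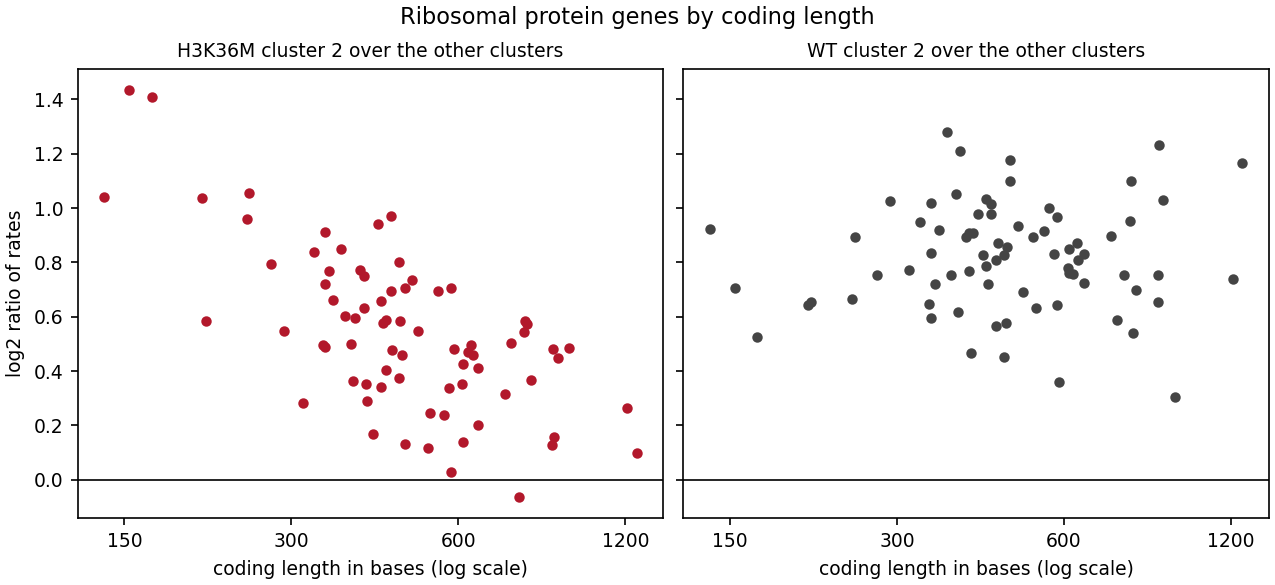
Log2 ratio of rates against coding length in bases (log scale) for 75 ribosomal protein genes, in H3K36M cluster 2 over the other H3K36M clusters (left) and WT cluster 2 over the other WT clusters (right). The ratio is highest for the shortest coding sequences on the left, with a Spearman correlation of -0.60, and shows no trend on the right, at 0.01.

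Among genes of translation itself, 12 of 20 were listed, 1 was at least 2-fold higher and 0 lower, a share near the 8.39% of all listed genes, with a median ratio of 1.19. Pabpc1, the poly(A)-binding protein that bridges mRNA tails and initiation factors, stood at 15.4 UMIs per 10000 in cluster 2, against 2.89, 5.67 and 3.02 in clusters 1, 3 and 4. Its ratio of 3.10 (2.55 to 3.79) was above that of every ribosomal protein gene. Pabpc1 was listed through cluster 2 alone, which fixed that it was highest there. Eef1a1 had a ratio of 1.73 and Tpt1, a growth-related protein, one of 1.74.

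Of 33 genes of glutathione metabolism and redox control, 10 were listed, 3 were at least 2-fold higher and 0 lower, beside 8.39% of all listed genes, with a median ratio of 1.30. The 3, Gstm1, Txn1 and Adh7, were listed through cluster 2 alone, which fixed that they were highest there. Gstm1, a glutathione S-transferase that conjugates electrophiles (chromosome 3, 108012255 to 108017973, minus strand), stood at 7.57 UMIs per 10000 (6.63 to 8.61) in cluster 2, against 4.63 (1.997 to 9.12), 1.86 and 1.89 in clusters 1, 3 and 4. The interval of cluster 1, which rests on 8 UMIs, overlapped that of cluster 2.

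Txn1, the thioredoxin that reduces protein disulphides, had a ratio of 2.42 (1.95 to 3.02), and Adh7, an alcohol and retinol dehydrogenase of upper digestive epithelia, one of 2.28 (1.83 to 2.85). Adh7 stood at 9.82 UMIs per 10000 in cluster 2 and 0.943 in cluster 4. Prdx1, a peroxidase that thioredoxin recycles, had a ratio of 1.51. Esd, an esterase that completes the glutathione-dependent detoxification of formaldehyde, had a ratio of 2.48 (1.91 to 3.25). Like Txn1 and Adh7, it was listed through cluster 2 alone.

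Metallothioneins, small cysteine-rich proteins that bind zinc and copper, were all above a ratio of 1 to the other clusters pooled without reaching 2-fold. Mt3 (chromosome 8, 94152607 to 94154146, plus strand) stood at 10.7 UMIs per 10000 (9.57 to 11.9) in cluster 2, against 2.31, 7.63 and 0.189 in clusters 1, 3 and 4. The cluster 4 value rests on 1 UMI, and the ratio to it was 56.7 (10.1 to 2248). Mt2 had a ratio of 1.66 to the other clusters pooled, Mt1 one of 1.25 and Mt4 one of 1.17. Mt4 was slightly lower in cluster 2 than in cluster 3, at 81.6 against 90.8 UMIs per 10000, and the other 3 were highest in cluster 2. The family took 1.40% of UMIs in cluster 2, against 0.665%, 1.32% and 0.343% in clusters 1, 3 and 4.

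Genes of the harder keratins and the cornified envelope were lower in cluster 2 than in cluster 3. Of 38 genes of differentiated squamous epithelium, 26 were listed, 0 were at least 2-fold higher and 17 at least 2-fold lower. Over all listed genes these shares were 8.39% and 17.8%. The 26 genes had a median ratio of 0.379 to the other clusters pooled. They took 6.31% of UMIs in cluster 2, against 3.898%, 11.6% and 2.19% in clusters 1, 3 and 4. Krt76, a keratin of the upper layers of oral epithelium, stood at 0.424 UMIs per 10000 in cluster 2, against 1.16, 7.73 and 0.566 in clusters 1, 3 and 4. Krt36 and Krt84, hard keratins of tongue papillae, had ratios of 0.114 (0.0843 to 0.153) and 0.167 (0.116 to 0.235). Krt76, Krt36 and Krt84 were listed through cluster 3 alone, which fixed that they were highest there. Lor, the main envelope protein loricrin, stood at 25.5 in cluster 2, against 15.04, 101 and 5.09 in clusters 1, 3 and 4.

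Most of these genes were lower against cluster 3 and not against the others. At least 2-fold lower were 19 of 26 against cluster 3, 3 against cluster 1 and 1 against cluster 4. Over all listed genes the lower shares were 15.1%, 14.4% and 16.1% against clusters 3, 1 and 4. Of the 26, 16 were at least 2-fold higher than in cluster 4, beside 30.5% of all listed genes. Ecm1 was at least 2-fold lower than in each of clusters 1, 3 and 4. The median ratio of the 26 genes was 0.296 against cluster 3, but 1.07 against cluster 1 and 3.16 against cluster 4. Krt13 and Krt4 differed less, at 0.922 and 0.830 of the other clusters pooled, and were 4.06 and 3.96 times as high as in cluster 4. The wound keratins did not reach 2-fold against the other clusters pooled. Krt16 stood at 38.0 UMIs per 10000 in cluster 2 against 17.4, 77.2 and 33.6 in clusters 1, 3 and 4. Its ratio was 2.19 to cluster 1 and 0.492 to cluster 3. Krt17 stood at 12.5 against 13.9, 23.7 and 28.3, with a ratio of 0.443 to cluster 4. The list of stress keratins and small proline-rich genes had 7 of 17 members listed. Against the other clusters pooled, 0 were past 2-fold, the median ratio was 0.589, and Krt6b alone was above 1, at 1.39.

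Surface proteases and their inhibitors followed the squamous genes. Of 24 in the list, 10 were listed, 0 were at least 2-fold higher and 4 at least 2-fold lower, with a median ratio of 0.565. Over all listed genes, 8.39% were at least 2-fold higher and 17.8% at least 2-fold lower. Slpi, an inhibitor of neutrophil elastase made by epithelia, stood at 26.0 UMIs per 10000 in cluster 2, against 13.3, 72.1 and 7.16 in clusters 1, 3 and 4. Asprv1, the protease that processes filaggrin, had a ratio of 0.261 (0.218 to 0.311). Serpinb3a and the epithelial defensin gene Defb4 were near absent from cluster 4, with 1 UMI each there. Defb4 stood at 4.34 in cluster 2 and 9.13 in cluster 3, and Serpinb3a at 7.08 and 8.10.

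Several genes that were highest in cluster 4 had the lowest ratios. All 4 listed members of the simple epithelium list were at least 2-fold lower, beside 17.8% of all listed genes, with a median ratio of 0.127. All 4 were listed through cluster 4 alone, which fixed that they were highest there. Krt19, a keratin of simple and ductal epithelia, stood at 0.228 UMIs per 10000 in cluster 2 and 9.24 in cluster 4, and the surface antigen gene Psca at 0.489 and 19.99. The ratios of Krt7, Krt19 and Psca to cluster 3, at 1.26, 1.48 and 0.949, rest on 14, 7 and 15 UMIs in cluster 2.

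Nupr1, a stress-induced chromatin regulator, had the lowest ratio of the 298 listed genes, 0.0635 (0.0249 to 0.136), with 7 UMIs in cluster 2 and 67 in cluster 4. Calcb, a neuropeptide gene, Ppbp, a chemokine gene, and Ltf, the secreted iron-binding lactoferrin, had ratios of 0.0892, 0.114 and 0.121. Nupr1, Calcb and Ppbp were listed through cluster 4 alone, which fixed that they were highest there. Ltf was the 1 member listed of 19 in the salivary gland list. Ecm1, an extracellular matrix protein, was lower in cluster 2, at 1.76 UMIs per 10000, than in each of clusters 1, 3 and 4, at 17.9, 10.4 and 22.6.

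The 4 listed basal keratinocyte genes had a median ratio of 0.999, with 0 of them past 2-fold, from Krt14 at 0.766 to Krt5, the partner of Krt14, at 1.23. The 5 listed glycolysis genes had a median of 0.962, with Gapdh at 1.29 and Tpi1 at 0.820. The 7 listed genes of the actin cytoskeleton had a median of 1.07. Of 3 listed genes of antigen presentation, H2-K1 stood at 5.87 UMIs per 10000 in cluster 2, against 30.7, 5.88 and 16.4 in clusters 1, 3 and 4. Of 7 listed junction genes, Gja1, the gap junction protein connexin 43, had a ratio of 1.55 and the desmosomal Pkp3 one of 0.454. The immediate early genes Ier3 and Dusp1 had ratios of 0.320 and 0.394, while Klf4, a regulator of epithelial maturation, had a ratio of 1.015.

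**Figure D5:**
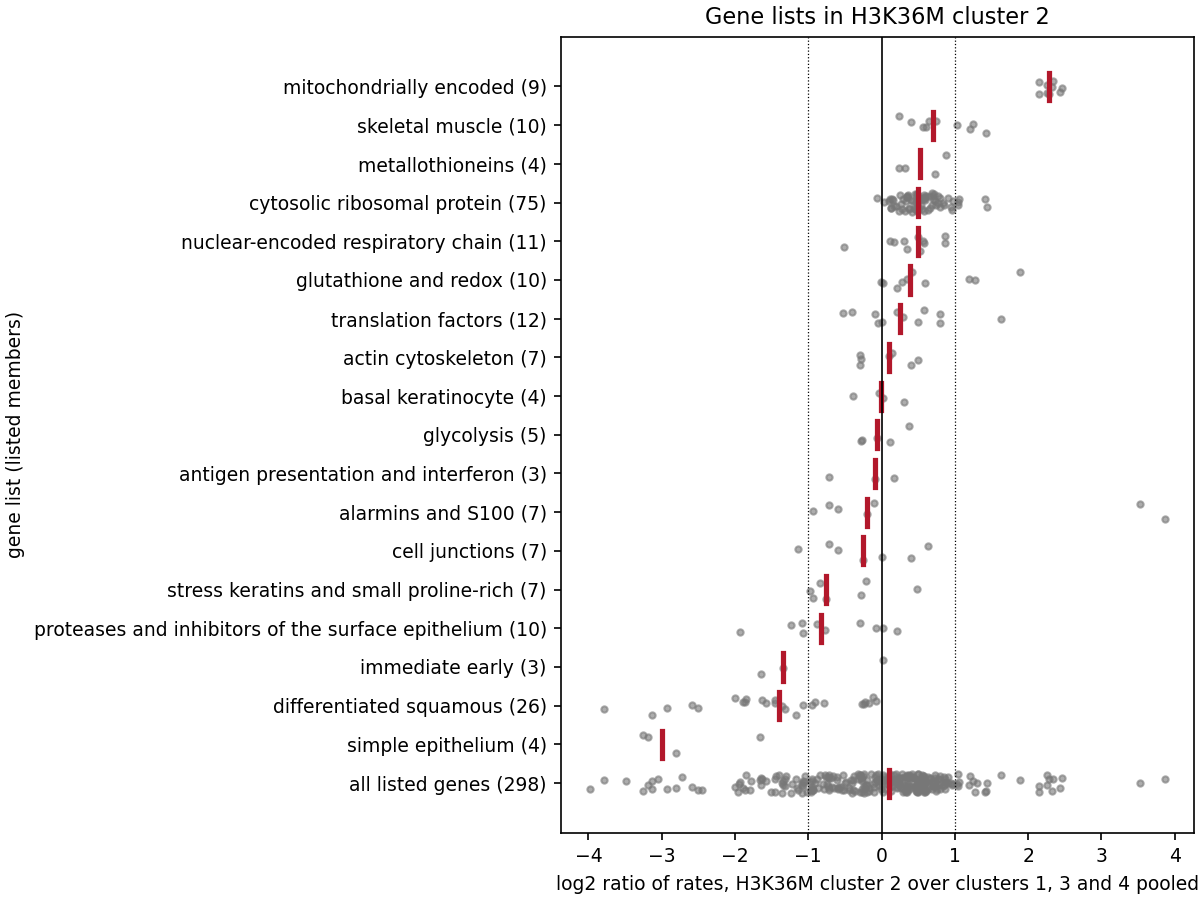
Log2 ratio of the rate in H3K36M cluster 2 to that in clusters 1, 3 and 4 pooled, for each listed member (grey points, spread vertically at random) of the gene lists with at least 3 listed members, and for all 298 listed genes. Red bars are medians and dotted lines mark 2-fold; every mitochondrially encoded gene lies beyond 2-fold, and S100a8 and S100a9 stand apart from the rest of their list.

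Set against each cluster in turn, cluster 2 was nearest to cluster 3 by number of genes past 2-fold. Against cluster 3, 32 genes were at least 2-fold higher and 45 (15.1%) at least 2-fold lower. Against cluster 1 these were 64 and 43 genes (14.4% lower), and against cluster 4 they were 91 and 48 genes (16.1% lower). Cluster 1 held 17291 UMIs, and single genes there can rest on few of them, as S100a8 did on 6. Against all 3 clusters singly, 16 genes were at least 2-fold higher: the 9 mitochondrially encoded genes, S100a8, S100a9, Pabpc1, Esd, Txn1, Rpl39 and Rps29. Of these, S100a8, S100a9, mt-Nd2, mt-Nd3, Pabpc1, Esd and Txn1 were listed through cluster 2 alone, which fixed that they were highest there. In the other direction 3 genes were at least 2-fold lower than in each, namely Ecm1, Nupr1 and the predicted gene Gm26532.

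Listing shaped these counts. A gene is listed where its average reached 1, or 7.24 UMIs per 10000, in some cluster, and 18 genes were listed through cluster 2 alone. Of the 25 genes past 2-fold, 9 were among them: S100a8, S100a9, mt-Nd2, mt-Nd3, Gstm1, Pabpc1, Esd, Txn1 and Adh7. That these were highest in cluster 2 was fixed by the listing. The other 16 reached the limit in another cluster as well. Through cluster 1, 3 or 4 alone, 15, 39 and 30 genes were listed, which fixed that cluster 2 was below that cluster for them. Genes at least 2-fold lower in cluster 2 include some of these, such as Krt76, Krt36, Krt84, Krt19 and Psca. Cluster 2 was the highest of the 4 clusters for 111 of 298 listed genes (37.2%), 65 of them ribosomal protein genes and 9 mitochondrially encoded.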

How the data were processed

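Spatial array libraries of 2 tongue sections were used, with groups taken from the titles. Space Ranger and the builds GRCm38 and mm10 are named in the submitters' processing notes, without a version or a description of how clusters were set. Per the file headers, the deposited cluster tables give, for each gene, a mean signal of each cluster and a log2 fold change. The deposited metrics hold counts of spots, reads and genes, values per spot, and each quality measure as a fraction. The deposited p-values of spots were not used, because the spots share 1 animal.

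All averages were whole multiples of 1 step per cluster (100% within 0.01 UMI), as for UMIs divided by summed size factors. The deposited log2 fold change was rebuilt from them exactly, with 1 added to counts and size factors of each side. Cluster totals rest on the smallest median (1380.5 UMIs per clustered spot) that made all totals whole. The deposited median per spot under tissue is 763.5 in that section. A multiple of the totals would lower every H3K36M rate, leave ratios within the section as they are, and can turn comparisons with WT rates. Simulated data were built with these recovered totals, so they could not check the totals themselves. From them, 100% of counts were recovered for both sections. The intervals held the true fold for 95% of changed genes in the H3K36M setting and 91.5% in the WT setting.

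A count of 0 was set to 3 UMIs in a reference cluster, which makes the ratio a lower bound. Genes that share reads with near-identical copies, such as ribosomal protein genes, their pseudogenes and nuclear copies of mitochondrial genes, are uncertain, since the counting rules are not given. The region, gene lists and tests were chosen with earlier results of these data known.

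Named genes were the 15 most abundant in cluster 2, the 12 highest and 8 lowest by deposited log2 fold change (predicted genes left out), the 4 with the highest ratio to each other cluster (at least 20 UMIs), the markers, the mitochondrially encoded genes and up to 4 members per list. Lor, Rps28, Rps13, Rps21, Rps23 and Gm26532 fall outside this and were chosen after their values were seen. Of the 32 lists, those for hair-type keratins, proliferation, macrophages, lymphocytes, fibroblasts, endothelium, erythroid cells, nerve, adipocytes, melanocytes, taste cells and smooth muscle had 0 members listed. The hard keratins Krt36 and Krt84 were counted in the differentiated squamous list and not in the hair-type list. Gene positions came from GENCODE (GRCm38), where all 298 identifiers matched. Promoter windows came from RefSeq. Python 3.11 with numpy, pandas, scipy and matplotlib was used.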

Additional observations from a re-analysis of the deposited data

How the results depend on the processing

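Of the alternative values, 62 stayed within 1.5 times the reported count or within the counting interval, and 22 moved further. Most of these values are counts, which have no direction. Many of the 62 were list counts of 0 that stayed 0 with mitochondrial UMIs left out of the totals. The ratios of S100a8, S100a9 and the summed mitochondrially encoded genes stayed above 1, while comparisons with WT rates could turn with the totals. The counts past the fold moved with the fold itself, against the other clusters pooled to 67 higher and 86 lower genes at 1.5-fold and to 13 and 27 at 3-fold. At 3-fold there were 34 higher and 22 lower genes against cluster 1, 16 and 24 against cluster 3, and 55 and 30 against cluster 4. The mitochondrial ratio of 4.92 was 4.40 against cluster 3 alone, 10.0 against cluster 4 alone and 5.20 with ribosomal protein UMIs left out of the totals. S100a8 had 18.4 against cluster 3 alone and 5.21 against cluster 4 alone, and S100a9 had 27.7 and 5.68. With mitochondrial UMIs left out of the totals, 8 ribosomal protein genes were past 2-fold in place of 5, and the median ratio of all other listed genes was 1.07 in place of 1.02. With H3K36M totals doubled, an alternative chosen after seeing the data, 2 in place of 9 mitochondrially encoded genes stood above all 3 WT clusters, as did 2 in place of 16 of the genes past 2-fold and 2 in place of 94 of all shared genes, and 10 in place of 3 genes past 2-fold stood below. No paired analysis was possible because there was 1 section per genotype. Cluster 1, with 17291 UMIs, sets the widest intervals, and no spread between animals could be estimated.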

Other observations

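Of the 25 genes at least 2-fold higher in H3K36M cluster 2, all 25 were listed in the WT table as well. For 16 of them the rate in H3K36M cluster 2 was above that of all 3 WT clusters, and for 3 it was below all 3. Over the 284 genes listed in both tables, 94 (33.1%) stood above all 3 WT clusters. With H3K36M totals doubled these counts were 2 above, 10 below and 2 (0.704%), so they depend on the totals. With the recovered totals, the 3 below were S100a8, S100a9 and Txn1, the last at 10.6 UMIs per 10000 against 12.2, 24.3 and 13.9 in WT clusters 1 to 3. Acta1, at 12.98 against 3.40, 2.29 and 7.97, and Ckm, at 10.9 against 3.07, 2.21 and 7.83, were among those above. Skeletal muscle genes in both tables took 0.783% of UMIs in H3K36M cluster 2 and 0.240%, 0.178% and 0.543% in WT clusters 1 to 3. With totals doubled the H3K36M share would be 0.391%, below that of WT cluster 3. Ribosomal protein genes took 15.7% in H3K36M cluster 2 and 8.91%, 16.1% and 12.1% in the WT clusters, and with totals doubled the H3K36M share would be 7.84%, below all 3. The tables were scaled separately, depth differed, and genotype, tissue sampled and section cannot be told apart.

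The surplus of mitochondrially encoded transcripts was not matched in size by the listed nuclear genes of the respiratory chain list. That list also holds the carrier gene Slc25a5. Against the other clusters pooled, the 9 mitochondrially encoded genes had ratios of at least 4.43 in H3K36M cluster 2. The highest among the 11 nuclear ones was 1.82.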
